A study of Mus musculus with 2 samples.

Results

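Splicing factors and heterogeneous nuclear ribonucleoproteins (hnRNPs) are the proteins that remove introns from pre-mRNA and package nuclear RNA. They were chosen as all probe sets whose single annotated gene symbol starts with Hnrnp, Srsf, Sf3, Snrp, Prpf or U2af (older spellings included, the imprinted gene Snrpn not). The choice uses names and no measured value, but it was made with earlier results of these data known. It gave 52 genes of 8251 on the array, measured by 71 probe sets. The study compared total RNA of 2 clones of mouse mesoangioblasts, vessel-associated progenitor cells, on Affymetrix U74A arrays, 1 for D16 and 1 for D351. For both, the dorsal aorta was taken from C57BL6 mouse embryos on embryonic day 9.5 and cultured as an explant for 5 days. Single cells were then cloned over mitomycin C-treated embryonic fibroblasts in RPMI with 20% fetal calf serum and expanded on gelatin. Each group is thus 1 clone and 1 array, so no test, standard error or p-value exists for any gene, and the number of arrays limits the precision.

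Introns are removed by the spliceosome, which is built anew on each intron from small nuclear ribonucleoproteins (snRNPs). Sm proteins form a ring around the snRNA, U1 recognises the 5' splice site, U2AF binds the 3' splice site, and the SF3a and SF3b complexes of the U2 snRNP hold the branch point. SR proteins mostly promote the use of nearby splice sites, and hnRNPs often oppose them, so that their balance sets alternative splicing. These genes are expressed in nearly every cell type, where they differ more in amount than in presence.

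Levels are given as intensity after both arrays were brought to the same median. A value under the floor of 17.4, the 40th percentile of all non-control values, was set to the floor. A gene counted as measured if it reached the floor in at least 1 clone. Where the other clone was below it, the ratio is a lower bound on the difference. In both clones, 51 of the 52 genes reached the floor. Prpf39, a U1-associated factor, lay below it in both, at 15.5 in D16 and 11.7 in D351. In at least 1 clone, 98.1% of the members and 73.9% of all genes on the array reached the floor. The only error that these arrays allow to be measured is how far several probe sets of a gene lie apart. Its SD was 0.52 (log2 ratio, 808 genes), and any variation from culture to culture comes on top of it.

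The members were close to equal in the clones. Of 51 measured members, 47 lay within 2-fold, 4 were past 2-fold towards D16 and 0 towards D351. Of all 6101 measured genes, 8.83% passed 2-fold towards D16 and 10.6% towards D351, so that the members' 7.84% in the D16 direction is near the background. Their median log2 ratio of D351 over D16 was -0.20, against -0.03 for all genes, and their middle values ran from -0.51 to 0.24 (quartiles), against -0.48 to 0.47. At 1.5-fold, 11 members (21.6%) were higher in D16, where the background was 21.0%, and 6 (11.8%) were higher in D351, where it was 21.1%. With no replicates, no difference between the members and other genes could be tested.

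**Figure D1:**
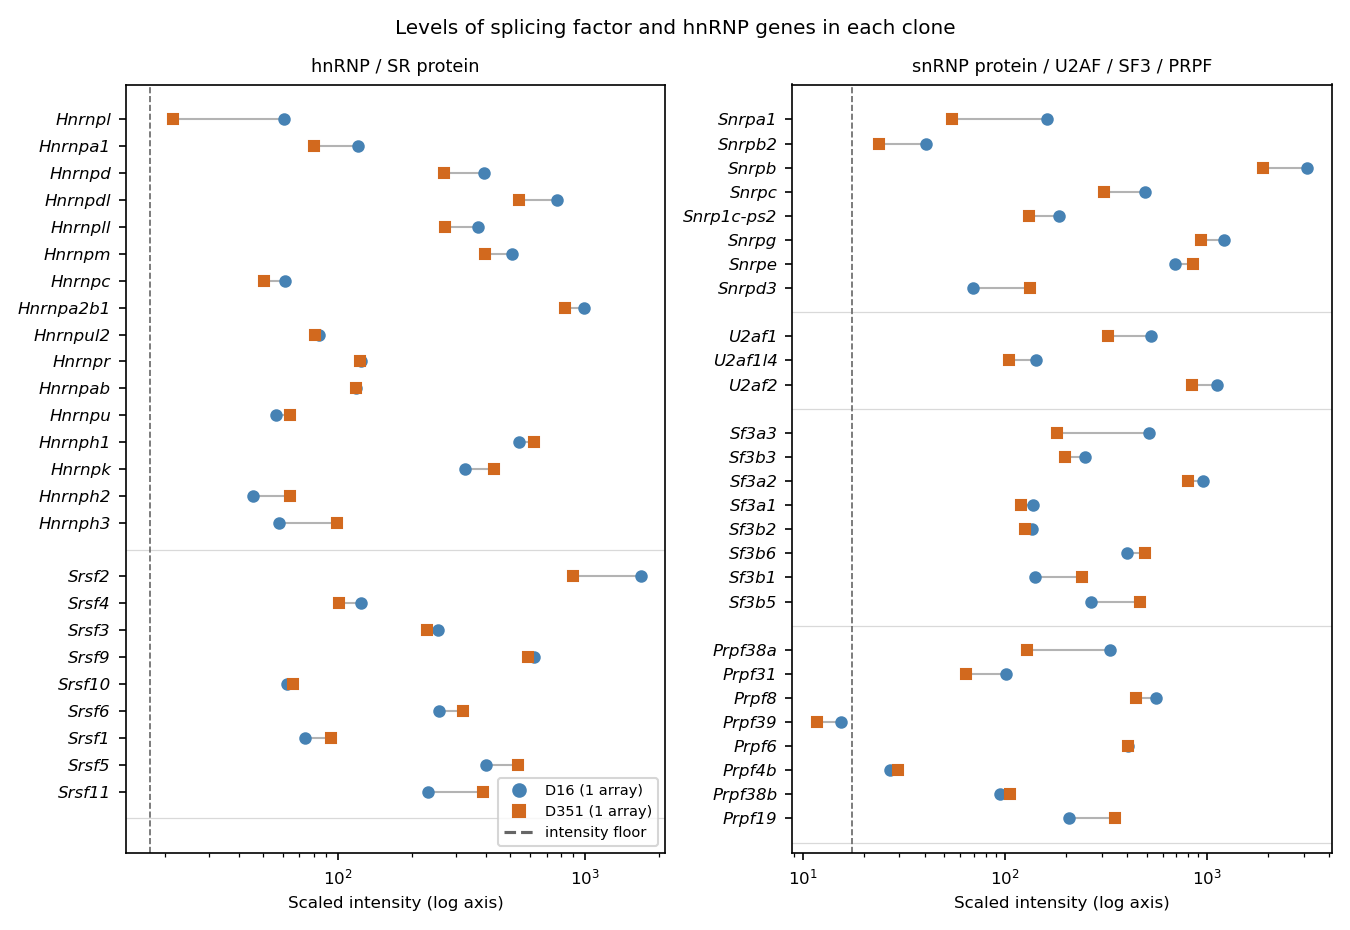
Scaled intensity (log axis) of each of the 52 member genes in D16 (circles) and D351 (squares), 1 array each, by the brightest probe set of the gene, with the intensity floor dashed. Most pairs lie close together; Snrpa1, Sf3a3, Hnrnpl and Prpf38a have the widest gaps, each with the D16 value on the right.

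The direction of small differences depended on the scaling. The 9 hybridization controls, spiked in at fixed amounts, had a median log2 ratio of -0.39. Scaling on them moved the median of all genes from -0.03 to 0.34 and that of the members from -0.20 to 0.20. The members at least 2-fold higher in D351 then numbered 6 (Snrpd3, Sf3b5, Hnrnph3, Sf3b1, Srsf11 and Prpf19; 19.9% of all genes), and 3 remained at least 2-fold higher in D16 (4.10% of all genes), Prpf38a having a log2 ratio of -0.97. Among all genes past 2-fold, 82.9% were then higher in D351, against 54.5%. The members' median lay below that of all genes by 0.17 in the main scaling and by 0.15 on the controls. Medians of the hnRNP, SF3 and PRPF groups changed sign, while those of the snRNP and U2AF groups stayed negative under the 5 scalings. The sign of 16 of the 51 members differed between scalings.

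**Figure D2:**
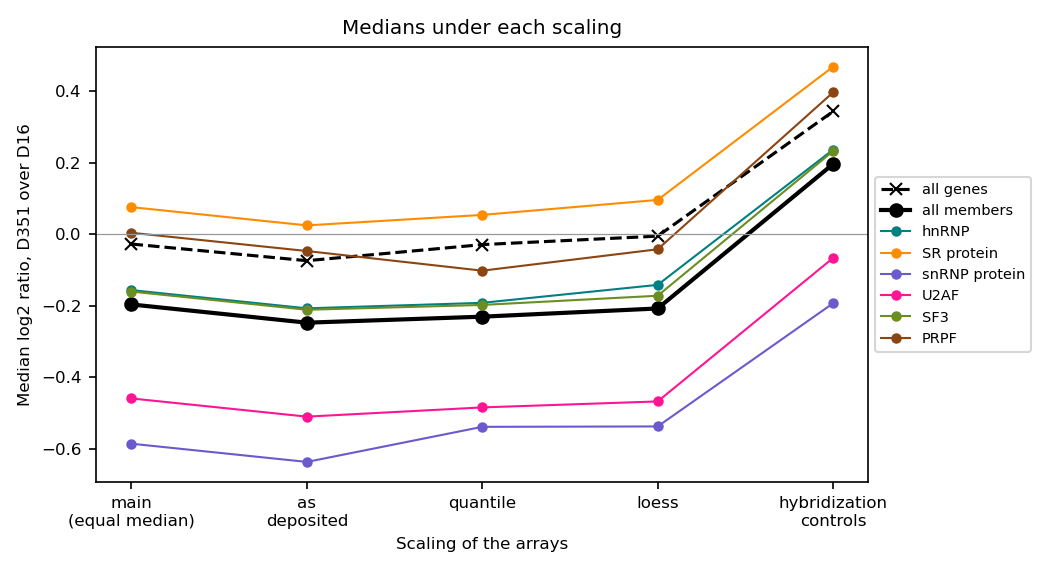
Median log2 ratio of D351 over D16 of all measured genes (dashed), all members (thick line) and each role group under 5 scalings of the arrays. Every line shifts upward with the hybridization controls, where all genes reach 0.34 and the members 0.20, and the order of the role groups is largely kept.

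Of the 4 genes past 2-fold, Snrpa1 and Sf3a3 encode proteins of the same particle, the U2 snRNP, and the others do not. Snrpa1 encodes the A' protein of the U2 snRNP and measured 162 in D16 and 54.4 in D351, 2.98-fold higher in D16. Sf3a3, a subunit of SF3a, which joins the U2 snRNP at the branch point, measured 514 and 180, 2.86-fold higher in D16. Hnrnpl, which binds CA-rich RNA and regulates exon inclusion, measured 60.4 and 21.6. Its 2.80-fold difference rests on a D351 value near the floor. With the floor at the 60th percentile that value is set to the floor, and the log2 ratio of -0.18 is only a bound. Prpf38a, which joins the spliceosome shortly before its activation, measured 331 and 128, 2.58-fold higher in D16. Each of the 4 has a single probe set, so none has a second measurement. The nearest members inside the 2-fold limit were Snrpd3 (log2 ratio of 0.94) and Srsf2 (-0.91).

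The promoters of these 4 genes are shown because they were the members that differed most. They are the 250 bases before the RefSeq start in the mouse assembly GRCm38.p6, written 5' to 3' on the strand of the gene. Coordinates are chr7:66060086-66060335 (plus strand) for Snrpa1, chr4:124714611-124714860 (plus) for Sf3a3, chr7:28810640-28810889 (plus) for Hnrnpl and chr4:108579337-108579586 (minus) for Prpf38a. Capitals mark matches, on either strand, to any of 7 searched motifs.
Snrpa1: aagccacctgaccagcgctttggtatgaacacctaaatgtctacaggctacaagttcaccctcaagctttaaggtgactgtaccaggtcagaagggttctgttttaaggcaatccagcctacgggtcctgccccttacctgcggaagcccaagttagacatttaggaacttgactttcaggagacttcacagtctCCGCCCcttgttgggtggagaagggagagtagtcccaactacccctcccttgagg
Sf3a3: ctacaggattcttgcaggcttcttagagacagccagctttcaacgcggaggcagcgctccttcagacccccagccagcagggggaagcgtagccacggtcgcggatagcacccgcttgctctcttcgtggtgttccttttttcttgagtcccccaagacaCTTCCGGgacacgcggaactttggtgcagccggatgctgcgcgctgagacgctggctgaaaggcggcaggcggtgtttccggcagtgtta
Hnrnpl: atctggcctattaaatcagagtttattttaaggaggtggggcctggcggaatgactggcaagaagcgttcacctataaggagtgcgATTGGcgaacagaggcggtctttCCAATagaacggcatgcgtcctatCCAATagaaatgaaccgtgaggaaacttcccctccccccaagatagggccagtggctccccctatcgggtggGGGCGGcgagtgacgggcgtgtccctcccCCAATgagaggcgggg
Prpf38a: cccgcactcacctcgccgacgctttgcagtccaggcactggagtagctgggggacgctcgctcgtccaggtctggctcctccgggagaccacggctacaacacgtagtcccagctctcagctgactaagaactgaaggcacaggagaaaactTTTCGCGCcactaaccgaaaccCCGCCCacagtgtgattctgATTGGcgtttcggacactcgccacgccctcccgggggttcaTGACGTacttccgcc
Motifs were searched by letters in windows of 300 bases (250 before and 50 after the start), which were found for 46 of the 52 members, 58 windows in all. No motif was common to all 4 of the stretches shown. Both strands were searched, and no matches overlap in these 4 promoters. Snrpa1 held a GC box (GGGCGG), which lies on the strand opposite to the gene. Sf3a3 held an ETS-like motif (CCGGAAG), also on the opposite strand. Hnrnpl held 4 CCAAT boxes (CCAAT, one of them on the opposite strand) and a GC box. Prpf38a held TTTCGCGC, the letters of an E2F-like site, 98 bases before the start, with a GC box, a CCAAT box and the core of a cyclic AMP response element (CRE, TGACGT). The E2F-like letters were in 1 of the 58 member windows (1.72%) and in 0.323% of all 32851 RefSeq windows. TTTGGCGC, another E2F-like form, was in 0 member windows and 0.514% of all. Over the members, GC boxes were in 69.0% of windows (all windows 35.7%), CCAAT boxes in 29 of 58 (all windows 37.4%), ETS-like motifs in 34.5% (8.86%) and CRE cores in 27.6% (7.51%). The TATA box letters TATAAA were in 8.62% (all windows 13.6%). Median GC content was 60.2% in member windows and 52.7% in all. The windows of all genes include non-coding genes, and a match describes letters only.

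The snRNP protein group had the lowest median of the role groups, -0.59 over 8 genes (-0.19 on the hybridization controls), 6 of them lower in D351 in the main scaling. These 8 include the pseudogene Snrp1c-ps2, and the median is the midpoint between its ratio and that of Snrpc. Besides Snrpa1, the other U2-specific gene Snrpb2, which encodes the B'' protein, measured 40.6 in D16 and 23.7 in D351, a log2 ratio of -0.77. Its other probe set measured 25.5 and 19.6 (-0.38). For both probe sets the D351 value is near the floor of 17.4. The U1 gene Snrpc measured 490 and 307 (-0.68), and the probe set of its pseudogene Snrp1c-ps2, of a kind that can share targets, 184 and 131 (-0.50). Sm ring genes went both ways. Snrpb, which encodes SmB, measured 3123 and 1885 (-0.73), and Snrpg 1213 and 927 (-0.39). Higher in D351 were Snrpe, at 688 and 853 (0.31), and Snrpd3, at 69.1 and 133 (0.94). Proteins of one ring thus had transcripts 1.66-fold lower and 1.92-fold higher in D351, each by a single measured probe set. The probe sets of Snrpb, Snrpb2, Snrpe and Snrp1c-ps2 carry suffixes (r or f) for less specific probe design.

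All 3 U2AF genes had lower levels in D351, with a median of -0.46 (-0.067 on the hybridization controls), and each stayed lower under the 5 scalings. U2af1, the small subunit that contacts the AG of the 3' splice site, measured 529 in D16 and 322 in D351 (-0.72). U2af2, the large subunit that binds the polypyrimidine tract, measured 1113 and 837 (-0.41). U2af1l4, a relative of the small subunit, measured 143 and 104 (-0.46). None reached 2-fold, and of these ratios only that of U2af1 exceeded the probe set SD of 0.52.

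SF3 genes had a median of -0.16 over 8 genes (0.23 on the hybridization controls), and the 3 subunits of SF3a had unlike ratios. Sf3a3 was lower in D351, as given above, whereas Sf3a2 measured 949 in D16 and 801 in D351 (-0.25, with -0.10 for its other probe set) and Sf3a1 137 and 119 (-0.20). In SF3b, Sf3b5, a small subunit, was higher in D351 at 266 and 467 (0.81). Sf3b1, the large subunit that holds the branch point helix, measured 141 and 240 (0.77), but its other probe set had 142 and 162 (0.19). Sf3b6, the subunit that contacts the branch point adenosine, measured 400 and 489 (0.29). Sf3b2 measured 136 and 125 (-0.12), and Sf3b3 249 and 197 (-0.34). On the hybridization controls all 5 SF3b genes were higher in D351, Sf3b1 (1.16) and Sf3b5 (1.20) by over 2-fold.

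**Figure D3:**
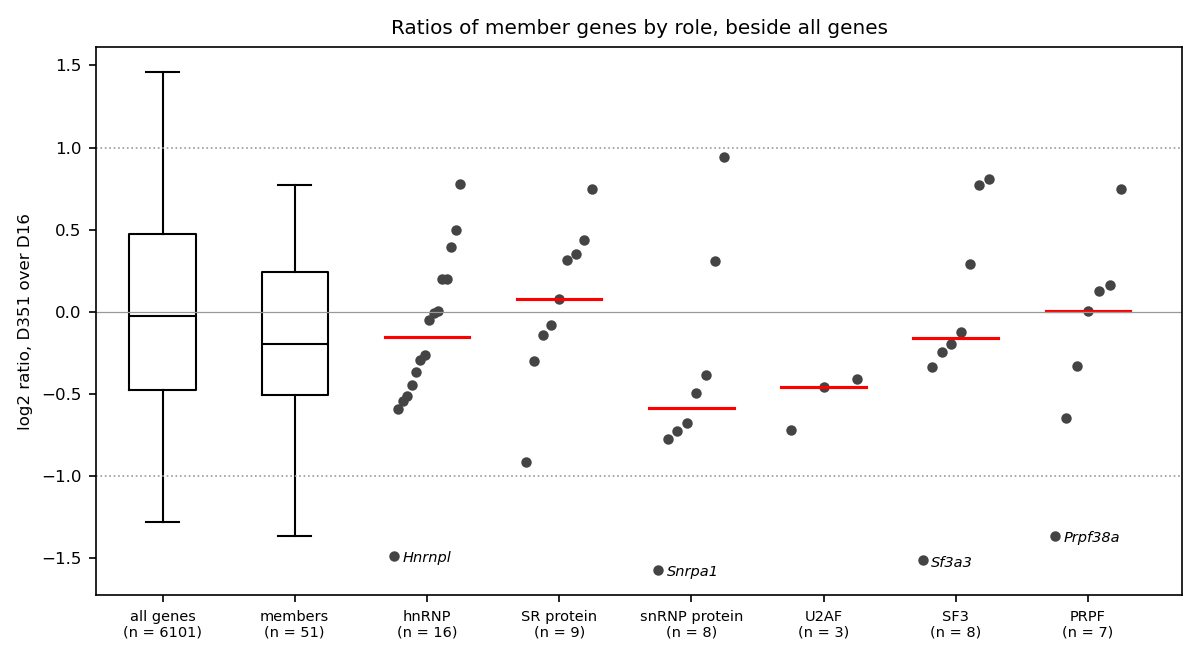
Log2 ratio of D351 over D16 for all measured genes and all measured members (boxes with median and quartiles, whiskers at the 5th and 95th percentile) and for each member by role (points, with the group median in red); dotted lines mark 2-fold. The 4 named genes are the members beyond a dotted line, and the U2AF and snRNP protein medians lie lowest.

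PRPF genes, named after yeast pre-mRNA processing mutants, had a median of 0.00 over 7 measured genes (0.40 on the hybridization controls). Prpf8, the core protein of the U5 snRNP around which the catalytic centre forms, measured 557 in D16 and 443 in D351 (-0.33). Prpf6, which bridges U5 and U4/U6, measured 405 and 406. Prpf31, also of the tri-snRNP, measured 101 and 64.3 (-0.65). Prpf19, the ubiquitin ligase of the Prp19 complex, measured 207 and 347 (0.75), its other probe set being below the floor. Prpf38b, a relative of Prpf38a, measured 94.8 and 106 (0.16), and the kinase gene Prpf4b 27.0 and 29.5 (0.13).

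SR proteins had a median of 0.08 over 9 genes (0.47 on the hybridization controls), 5 of them higher in D351. Srsf2 (SC35), which promotes exon inclusion, was 1.88-fold higher in D16, at 1687 and 896. Its other probe set measured 609 and 312, a log2 ratio of -0.97 beside -0.91, so both measurements were just short of 2-fold in the same direction. Both carry the suffix s and can share targets with other genes. Srsf11 was the highest in the other direction, at 231 in D16 and 389 in D351 (0.75). Srsf5 measured 398 and 538 (0.43), Srsf6 258 and 320 (0.31), and Srsf1 (ASF/SF2), a founding member of the family, 73.5 and 93.6 (0.35, with 0.16 for its other measured probe set). Srsf9 was close to equal, at 625 and 590, as were Srsf3 (254 and 230), Srsf4 (125 and 101) and Srsf10 (62.5 and 65.9). By a second probe set, log2 ratios were 0.20 for Srsf3 (-0.14 by the first), 0.01 for Srsf4 (-0.30 by the first) and 0.74 for Srsf10.

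The hnRNP genes had a median of -0.16 over 16 genes (0.24 on the hybridization controls), 10 of them lower in D351, and 11 lay within 0.5 of equality on the log2 scale. Hnrnpa2b1, one of the core hnRNPs that coat nascent RNA, measured 997 in D16 and 829 in D351 by its brightest probe set (-0.27). Its other probe set measured 66.0 and 143, 2.17-fold higher in D351. Hnrnpul2 showed the same kind of disagreement, with 83.7 and 81.0 by one probe set and 37.1 and 87.7 (2.36-fold higher in D351) by the other. For both genes the direction cannot be read from these arrays. Hnrnph3, of the family that binds G-runs, was 1.71-fold higher in D351 at 57.8 and 98.9. Its relatives measured 45.4 and 64.1 (Hnrnph2, 0.50) and 544 and 625 (Hnrnph1, 0.20).

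Lower in D351 besides Hnrnpl were Hnrnpa1, a splicing repressor, at 121 and 80.1 (-0.59), and Hnrnpd (AUF1), which binds AU-rich elements and acts in mRNA decay, at 392 and 269 (-0.54). Hnrnpdl, its relative, measured 771 and 540 (-0.51), with a second probe set at 114 and 113 (-0.01). Hnrnpll, a relative of Hnrnpl, measured 369 and 271 (-0.45), Hnrnpm 509 and 394 (-0.37) and Hnrnpc 61.4 and 50.1 (-0.29). Besides Hnrnpl, only Hnrnpa1 and Hnrnpd of these exceeded the probe set SD of 0.52. On the hybridization controls Hnrnpm (0.02) and Hnrnpc (0.10) had positive ratios. Those of Hnrnpa1 (-0.20), Hnrnpd (-0.15), Hnrnpdl (-0.12) and Hnrnpll (-0.05) stayed negative. Near equality were Hnrnpr (124 and 123), Hnrnpab (118 and 119) and Hnrnpu, a nuclear scaffold protein (56.0 and 64.3). Hnrnpk, which binds C-rich RNA, was higher in D351 at 327 and 430 (0.39).

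Of the member genes, 11 had 2 probe sets measured in both clones. In 7 of them both had the same sign, and in 2, Hnrnpa2b1 and Hnrnpul2, they differed by over 1 on the log2 scale. The median difference was 0.40 and the pooled SD 0.48, close to the 0.52 of all genes. By probe set rather than by gene, 4 of 62 measured member probe sets were past 2-fold towards D16 (background 8.65% of 7339) and 2 towards D351 (background 10.2%).

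**Figure D4:**
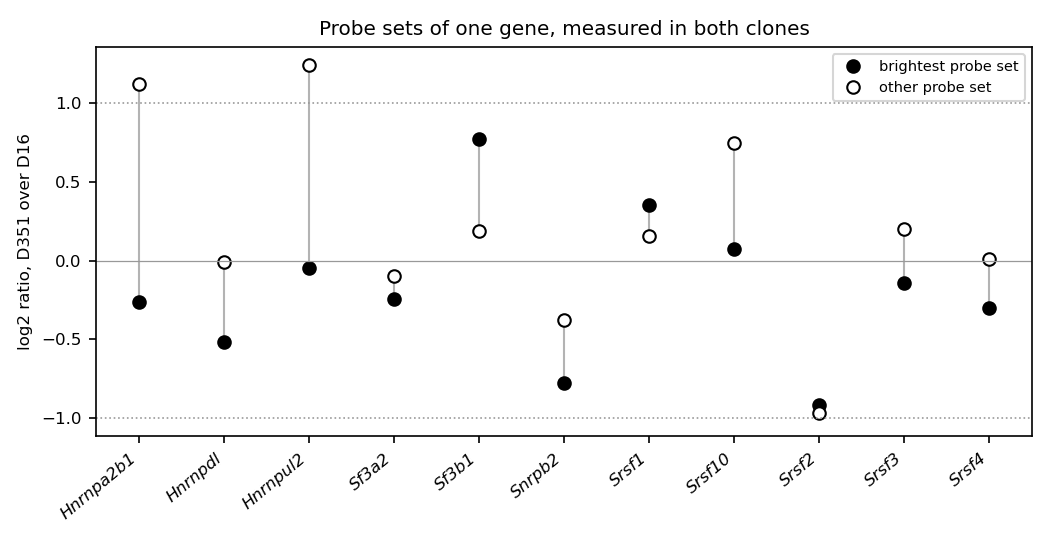
Log2 ratio of D351 over D16 for the 11 member genes with 2 probe sets measured in both clones; filled points are the brightest probe set, open points the other, and dotted lines mark 2-fold. Srsf2 has both points near -1, while Hnrnpa2b1 and Hnrnpul2 each have 1 point near 0 and 1 above 1.

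Other splicing and RNA-binding genes outside these name groups lay in the same range. Of 103 listed genes, 75 had a probe set with a single symbol and 74 were measured, with a median of -0.26. At least 2-fold higher in D16 were 3 (4.05%) and in D351 1 (1.35%), against the same backgrounds of 8.83% and 10.6%. Alyref, an mRNA export adaptor, measured 530 in D16 and 199 in D351, 2.67-fold higher in D16. Ncbp1, the large cap-binding subunit, measured 105 and 47.4 (2.21-fold), and Cdc5l, a partner of Prpf19 in the Prp19 complex, 277 and 128 (2.16-fold), with a log2 ratio of -0.44 for its other probe set. On the hybridization controls, Alyref stayed past 2-fold (-1.02) and the other two did not (-0.75 and -0.72). Son, a scaffold of nuclear speckles, was 2.16-fold higher in D351, at 107 and 230, with 0.58 for its other probe set. Prpf19 and Cdc5l thus had ratios of opposite sign.

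Cell cycle genes differed far more, 22 of 32 being past 2-fold towards D16, with a median of -1.26. Medians were -0.35 for 27 cytosolic ribosomal protein genes and -0.12 for 36 proteasome subunit genes. The part of the cell cycle difference in the levels of splicing genes was not tested. Of markers chosen for the labelled cell type, 9 of 12 on the array reached the floor in each clone, with the receptor genes Kdr and Kit below it in both and Cd34 at 475 in D16 but below it in D351. Alpl was below it in D16 and measured 19.0 in D351. These markers went both ways. Pdgfrb (3.62-fold), Tagln (2.93-fold) and Acta2 (1.79-fold) had higher levels in D351, and Thy1 was 1.47-fold higher in D16. The remaining measured ones differed by at most 1.31-fold (Mcam). Of 5 endothelial markers, 4 were below the floor in both (Pecam1 measured 30.8 and 20.3), as were 3 of 4 haematopoietic ones. The fourth, the macrophage gene Cd68, did not reach the floor in D16 and measured 36.9 in D351. All 5 fibroblast genes were measured in both, with summed levels of 5992 in D16 and 9168 in D351, but they went both ways. The collagen genes Col1a1 (2.45-fold), Col1a2 (2.03-fold) and Col3a1 (2.54-fold) had higher levels in D351, S100a4 was 4.42-fold higher in D16, and Fn1 measured 484 and 417. The part of these markers in the results was not tested. The 3'/5' ratio of the Actb control was 1.81 in D16 and 1.37 in D351, that of Gapdh 1.56 and 1.44. Whether this difference moves the ratios of splicing genes was not tested.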

How the data were processed

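Total RNA of 2 mesoangioblast clones was measured on 1 array each. The authors deposited 1 linear intensity per probe set and array. How these were computed from the scans is not given in the sources read here. Their 2% trimmed mean was 100.1 in both arrays, so they appear scaled to a common target. Of 12488 probe sets, 66 controls were left out. Of the other 12422, 10833 had 1 symbol in the platform annotation, 396 several and 1193 none; 10817 single symbols matched RefSeq by Entrez number and 0 differed. Arrays were scaled to equal median log2 level (factors 0.983 for D16 and 1.02 for D351), values below 17.4 were set to it, and ratios (D351 over D16) were taken on the log2 scale. The brightest probe set represented a gene. Promoters are from RefSeq (GRCm38.p6); protein sequences were not used here.

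The named genes were those at least 2-fold apart, the brightest, highest and lowest of each role group, those whose probe sets disagreed, and up to 4 other splicing genes each way; every other member is given by its levels. Members and lists were chosen with earlier results of these data known. Functions were tested on simulated data. Alternatives covered scaling, floor, pseudocount, probe set rule, fold threshold and symbols. Python 3.11.15, numpy 2.4.6, pandas 2.3.3, scipy 1.17.1, statsmodels 0.14.6 and matplotlib 3.10.9 were used.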

Additional observations from a re-analysis of the deposited data

Results flagged for a closer look

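Outside the comparison of genes lay 7 probe sets whose annotation pairs a symbol that starts with a member prefix with other symbols, so that they name no gene. Snrpn was not left out of this search. All 7 gave a signal above the floor in at least 1 clone, and 6 in both. Log2 ratios of D351 over D16 were -0.52 for probe set 100101_at, -0.75 for 100371_at, -0.89 for 100577_at, -0.92 for 101523_at, -0.55 for 95049_at and -0.40 for 97272_at. For 101524_at, which measured 34.5 in D351 and did not reach the floor in D16, the ratio was at least 0.99. The 6 probe sets measured in both clones were lower in D351, each by less than 2-fold.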

How the results depend on the processing

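No paired analysis was possible because neither clone has a second array, nor could a replicate be left out. Of 94 medians and counts under the alternatives, 77 moved by less than the probe set spread (for a median, that SD over the square root of the number of genes; for a count, within 1.5 times) and 17 by more. With the hybridization controls, the members at least 2-fold higher in D351 numbered 6, and medians were 0.20 for all members, 0.24 for hnRNP, 0.47 for SR protein, 0.23 for SF3, -0.19 for snRNP protein, 0.40 for PRPF and -0.067 for U2AF genes. With the median over a gene's probe sets, medians were -0.12 for all members, -0.0007 for hnRNP and 0.25 for SR protein genes. Without suffixed probe sets, which left 44 members, they were -0.029, with 0.26 for SR protein and 0.046 for SF3 genes. At 1.5-fold the counts were 11 higher in D16 and 6 in D351, and at 3-fold 0 in D16, where 2.61% of all genes passed (at 1.5-fold 21.0% and 21.1%). For single named genes, 253 of 257 values moved by less than the spread and 4 by more. Many of these outcomes were fixed in advance. Scaling on the hybridization controls (median log2 ratio of -0.39) shifts these genes by less than the SD of 0.52, so none could count as moved. For the medians the same shift is larger than every tolerance, so all medians on the controls had to count as moved. The values as deposited differ from the main ones by a constant shift below every tolerance, so none of their medians or named genes could. The symbol update changed 0 symbols, so its values, medians and counts repeat the main ones. A floor at the 25th percentile could not change a named gene, all being measured in both clones. No sign changed among the named genes past 2-fold in the main setting, while several with smaller ratios changed sign on the hybridization controls. With the median over probe sets, Hnrnpa2b1 moved to 0.43 and Hnrnpul2 to 0.60. Hnrnpl moved to -0.18 with a floor at the 60th percentile, where its D351 value is set to the floor and the ratio is only a bound. With a pseudocount of 20 it moved to -0.95, as its D351 level is near the floor.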

Other observations

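The genes next to the 4 members past 2-fold, in RefSeq order of start positions regardless of strand, were looked up after the values were seen. Prpf38a is on the minus strand, so the next gene by position, Orc1, lies on its promoter side. Orc1 encodes a subunit of the origin recognition complex in DNA replication. It measured 87.1 in D16 and 15.4, below the floor, in D351, at least 5.01-fold higher in D16. Hnrnpl is followed by Ech1, an enzyme of fatty acid oxidation, at 442 and 310 (a log2 ratio of -0.51), and Snrpa1 by Selenos, a selenoprotein of the endoplasmic reticulum, at 84.1 and 103 (0.29). No such neighbour of Sf3a3 was measured.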
